A study of Mus musculus with 6 samples.

Results

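Secreted antagonists of Wnt signalling were followed as 9 genes: the secreted frizzled-related protein genes Sfrp1, Sfrp2, Frzb (also called Sfrp3) and Sfrp5, the Dickkopf genes Dkk1, Dkk2 and Dkk3, the Wnt inhibitory factor gene Wif1, and Kremen1, which encodes a cell-surface receptor of Dickkopf proteins. They were chosen by name, and all 9 were found among the 20033 genes measured. RNA had been sequenced from the mesonephros of 6 male E12.5 mouse embryos, 3 global knockouts of Wnt9b and 3 controls. One label gives the controls as heterozygous and the series' design text gives them as Wnt9b+/+, so they are called controls here. Each library came from 1 embryo per the titles, the litters and the collection days are not given, and the p-values measure the spread between these 6 embryos. Levels are length-corrected transcript abundances (TPM), and can therefore be compared between genes.

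The mesonephros, a kidney that serves the embryo for a time, holds the Wolffian duct, the mesonephric tubules and the mesenchyme around them. Wnt9b is a Wnt ligand made by the duct epithelium. Wnt ligands bind Frizzled receptors together with the co-receptors Lrp5 and Lrp6, and antagonists outside the cell act at both steps. Secreted frizzled-related proteins carry a cysteine-rich domain like that of Frizzled receptors and bind Wnt ligands, and Wif1 also binds the ligands. Dkk1 binds Lrp5 and Lrp6 instead, and Kremen proteins join it in taking these co-receptors off the cell surface. Mice that lack both Sfrp1 and Sfrp2 have defects of male reproductive development.

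Sfrp5 was the member that stood furthest apart between the genotypes, with a mean in knockouts that was 0.363 times that in controls. The limma test over all genes did not call it, whereas its adjusted p in the authors' deposited table is 0.000629. Frzb and Sfrp2 lay above all controls in knockouts 1 and 2 but not in knockout 3. Sfrp1, the most abundant member by far, and the 3 Dickkopf genes had overlapping groups. Wif1 was scarce and lay below all controls in the knockouts. None of the 9 genes passed limma's test on log2(TPM + 1) at an adjusted p under 0.05, against 0.444% of all 17577 genes tested. At an unadjusted p under 0.05 limma gave 1 of the 9, Sfrp5, where 11.3% of all genes did so. All 9 had passed the filter on low values (1 TPM or more in 3 or more libraries).

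Each library held at least 27597732 to 32028684 reads on genes, as worked back from the TPM values. Wnt9b itself stayed measurable, at 23.4, 19.2 and 19.0 TPM in knockouts and 24.9, 26.4 and 34.0 TPM in controls, and it was not called (log2 difference -0.44, SE 0.14; limma adjusted p = 0.266). Every knockout lay below every control, and the authors' deposited table lists Wnt9b at a log2 fold change of -0.45 with adjusted p = 0.0263. A value per gene also counts transcripts that remain after part of a gene is deleted, so it is a weak check of the labels. Markers of the gonadal soma moved with genotype: 5 of 13 tested were higher (Lhx9, Gata4, Nr0b1, Nr5a1 and Inhbb) and 0 lower in knockouts (limma). The summed level of the list was 519 to 629 TPM in knockouts and 457 to 488 TPM in controls. Wt1 and Emx2, neither of them called, made up most of that sum in each library. The median log2 difference of the 13 was 1.30. Of 14 duct epithelium markers, 0 were higher and 2 lower, Lhx1 and Calb1, with sums of 749 to 821 TPM in knockouts and 906 to 938 TPM in controls. Of 7 tubule and glomerulus markers, 0 were higher and 2 lower, Jag1 and Irx1. The list summed to 264 to 334 TPM in knockouts and 298 to 354 TPM in controls. Podxl, with means of 216 TPM in knockouts and 217 TPM in controls, made up most of these sums. The median log2 difference of the 7 was -0.50. Of 14 mesenchyme markers, 1 was higher (Tcf21) and 2 were lower (Pdgfrb and Hand2), with sums of 2833 to 3006 TPM in knockouts and 2950 to 3254 TPM in controls. In the other 8 lists, which cover coelomic epithelium, smooth muscle, endothelium, erythroid cells, macrophages, neural cells, germ cells and stress genes, 0 of 56 entries passed limma's test (15 at an unadjusted p under 0.05, 0 by limma-voom). In 2 of these 8 lists the sums did not overlap between the groups. Smooth muscle markers summed to 135 to 169 TPM in knockouts and 118 to 128 TPM in controls, and endothelial markers to 321 to 372 TPM in knockouts and 391 to 424 TPM in controls. The stress genes Hspa1a and Hspa1b, which encode heat shock proteins, lay above all controls in every knockout without being called (limma adjusted p = 0.187 and 0.228). No listed gene in the table was at 0 in all 6 libraries. The part of these cell types in the results on the antagonists was not tested, and in whole tissue fewer cells of a type and less RNA per cell cannot be told apart.

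**Figure D1:**
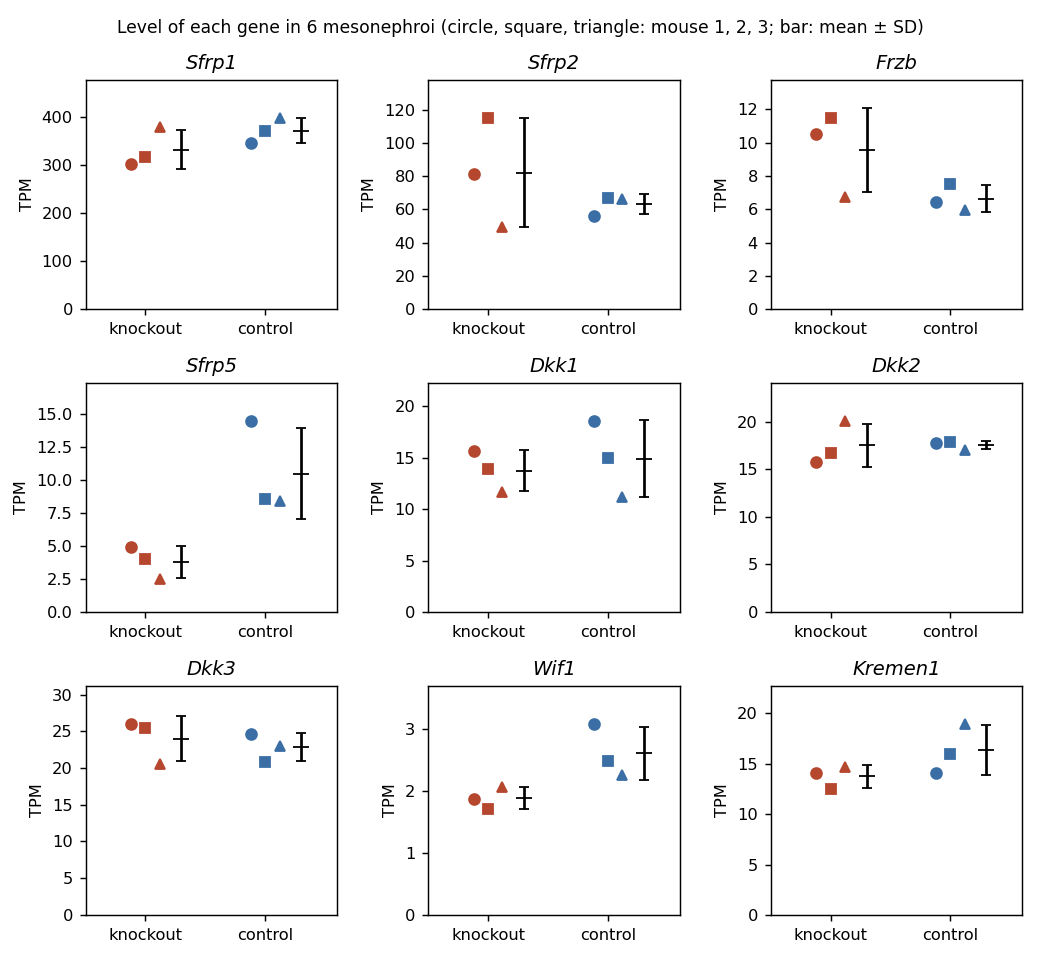
TPM of the 9 genes in each of 3 knockout (red) and 3 control (blue) mesonephroi; each axis starts at 0, symbols mark the mouse number, and the bar is the mean ± SD. The groups do not overlap for Sfrp5 (at most 4.92 TPM in knockouts, at least 8.40 TPM in controls) and for Wif1, both lower in knockouts.

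Sfrp5, which encodes a Wnt-binding antagonist, was at 4.92, 4.01 and 2.51 TPM in knockouts 1 to 3 and at 14.5, 8.60 and 8.40 TPM in controls 1 to 3. Every knockout lay below every control, and control 1 stood above the other controls. The means were 3.82 ± 1.22 TPM in knockouts and 10.5 ± 3.47 TPM in controls (SD, n = 3 each), a 2.75-fold lower mean in knockouts. On the log2(TPM + 1) scale, which understates the change of low genes, the difference was -1.25 (SE 0.26, 95% interval -1.85 to -0.65). A difference this low or lower was seen for 0.216% of the 17577 genes tested. Its limma adjusted p of 0.111 missed the threshold. The authors' deposited table lists Sfrp5 at a log2 fold change of -1.46 with adjusted p = 0.000629, the only one of the 9 genes under 0.05 there, where 3.55% of 18858 genes with an adjusted p are. A limma-voom fit on the recovered reads gave -1.45 (SE 0.34, adjusted p = 0.0570), and that fit called 0 of the 9 genes and 1.57% of all genes.

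The values of Sfrp5 rested on 86, 64 and 40 recovered reads in knockouts and 268, 135 and 128 in controls. The highest upper limit of a knockout was 6.08 TPM and the lowest lower limit of a control 7.005 TPM (exact Poisson 95% intervals, which cover counting error only), so the groups stayed apart at this depth. The spread between embryos was larger than counting error, with an SD of 31.9% of the mean in knockouts and 33.0% in controls, against counting errors of 12.6% in knockouts and 7.52% in controls. Among 12770 genes averaging 5 TPM or more, the profile over the 6 libraries nearest to that of Sfrp5 was that of Lhx1. Listed here as a duct marker, Lhx1 encodes a transcription factor required for duct formation. Lhx1 was at 10.3, 9.39 and 7.42 TPM in knockouts and 27.4, 22.6 and 21.9 TPM in controls, with the same order of libraries within each group. The root mean square distance between the centred log2 profiles was 0.17 for Lhx1, 0.19 for the nucleosome assembly gene Nap1l2 and 0.23 for the monooxygenase gene Moxd1. This distance takes in the difference between the groups. Genes near Sfrp5 are therefore lower in knockouts by the way they were picked, and their fall is no separate result. The summed duct markers given above were also lower in every knockout than in every control. Krt18, Krt8, Epcam and Emx2 made up most of that sum. Of the 14 duct markers, 4 had log2 differences above 0 (Tfap2b 0.35, Cdh1 0.17, Ret 0.12 and Gata3 0.027), none of them called. The median log2 difference of the 14 was -0.21, beside -0.50 for the 7 tubule and glomerulus markers. The part of the duct or of the tubules in the values of Sfrp5 was not tested.

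Promoter windows were at hand for 6 of the 9 genes. Those of Sfrp5 and Dkk1 are shown because they pair the member with the largest difference with a known beta-catenin target, Dkk1, whose groups overlapped. Both are the 250 bases before the gene's start from RefSeq (build GRCm38.p6, minus strand, printed 5′ to 3′ along the gene), at chr19:42202253-42202502 for Sfrp5 and chr19:30549497-30549746 for Dkk1. Capitals mark CTTTG, the core of the sequence that TCF and LEF factors recognise, and its reverse CAAAG; adjoining matches are printed as 1 run.
Sfrp5: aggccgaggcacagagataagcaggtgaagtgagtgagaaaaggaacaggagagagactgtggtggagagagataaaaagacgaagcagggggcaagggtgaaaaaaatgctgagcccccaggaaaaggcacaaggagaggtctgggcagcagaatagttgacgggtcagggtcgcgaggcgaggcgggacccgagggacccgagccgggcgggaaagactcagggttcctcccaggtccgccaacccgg
Dkk1: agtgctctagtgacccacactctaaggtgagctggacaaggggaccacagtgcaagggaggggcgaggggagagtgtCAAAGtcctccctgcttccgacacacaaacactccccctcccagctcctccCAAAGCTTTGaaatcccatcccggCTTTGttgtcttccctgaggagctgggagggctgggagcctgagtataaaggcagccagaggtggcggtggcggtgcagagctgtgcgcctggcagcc
The Dkk1 window held 4 matches, 2 on each strand, and the Sfrp5 window held 0. Frzb, Dkk2 and Wif1 had 1 match each and Sfrp2 had 0. The core was thus in 4 of 6 windows, and in 48.6% of the 32817 windows searched, which leave out 1 chromosome. The longer motif CTTTGAT, searched on both strands over the whole 300 bases, was in 0 of the 6 windows and in 3.73% of the 32817. The short core was chosen after the sequences had been seen, and these matches describe letters only.

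**Figure D2:**
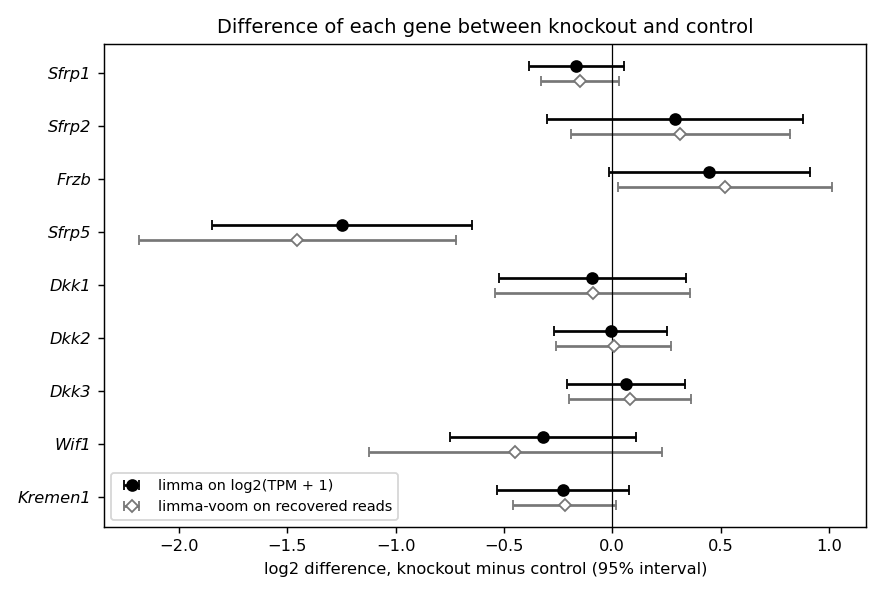
Log2 difference (knockout minus control) of the 9 genes with 95% intervals, from limma on log2(TPM + 1) (filled circles) and from limma-voom on the recovered reads (open diamonds). The interval of Sfrp5 lies below 0 in both fits, that of Frzb lies above 0 with limma-voom alone, and all others span 0.

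Frzb, a Wnt-binding antagonist first known from cartilage, was at 10.5, 11.5 and 6.71 TPM in knockouts and 6.41, 7.52 and 5.93 TPM in controls. Knockouts 1 and 2 lay above all controls and knockout 3 lay among them. The means were 9.58 ± 2.53 TPM in knockouts and 6.62 ± 0.81 TPM in controls (SD, n = 3 each), which differed by 0.45 on the log2 scale (SE 0.20, 95% interval -0.016 to 0.91; limma adjusted p = 0.461). Without knockout 3 the difference was 0.66 (limma adjusted p = 0.0929), and without knockout 2 it was 0.31 (limma adjusted p = 0.777). For Frzb the adjusted p in the authors' deposited table is 0.236. The nearest profiles belonged to the dynein light chain gene Dynlt1b, the neuronal receptor gene Lingo1 and the chemokine-scavenging receptor gene Ackr3, at distances of 0.078, 0.090 and 0.095. Dynlt1b has near-identical copies in the mouse, so its own value is uncertain.

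Frzb and Sfrp5 stood in opposite order in the 2 genotypes. In all 3 knockouts Frzb exceeded Sfrp5, with Sfrp5 at 0.467, 0.349 and 0.374 times the level of Frzb. In all 3 controls Sfrp5 exceeded Frzb, at 2.26, 1.14 and 1.42 times its level. In control 2 the 2 genes were close, at 8.60 TPM for Sfrp5 and 7.52 TPM for Frzb, with overlapping counting intervals. The log2 ratio of Sfrp5 to Frzb averaged -1.34 ± 0.22 in knockouts and 0.62 ± 0.50 in controls (SD, n = 3 each). This pair was picked after the values had been seen, so the ratio is a description without a test.

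**Figure D3:**
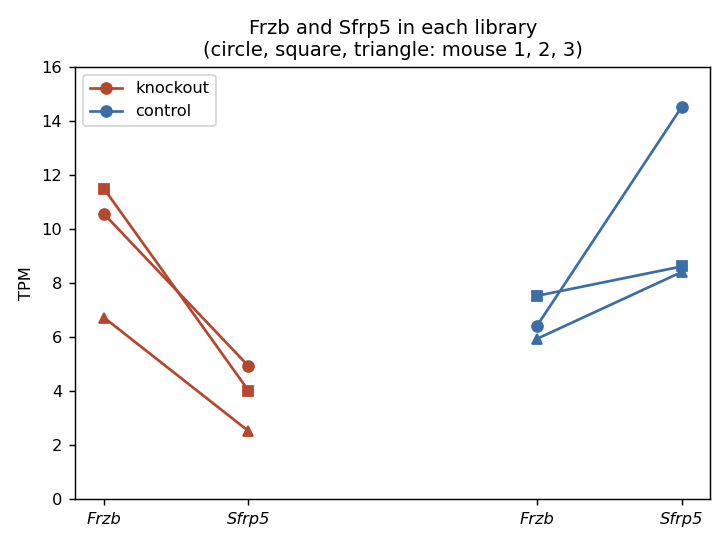
TPM of Frzb and Sfrp5 joined by a line within each library, for 3 knockouts (red, left) and 3 controls (blue, right). All 3 knockout lines run down from Frzb to Sfrp5 and all 3 control lines run up, least in control 2 (7.52 to 8.60 TPM).

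Sfrp2, an antagonist expressed in embryonic mesenchyme, was at 81.6, 115 and 49.4 TPM in knockouts and 56.3, 67.2 and 66.5 TPM in controls. Knockout 2 was the highest of the 6 libraries and knockout 3 the lowest, so the knockouts spanned all controls. The SD was 40.1% of the mean in knockouts and 9.58% in controls, whereas counting error was 2.56% in knockouts and 2.92% in controls. The log2 difference of 0.29 (SE 0.26, 95% interval -0.30 to 0.88) did not pass (limma adjusted p = 0.737). It was 0.61 without knockout 3 and 0.0088 without knockout 2 (limma adjusted p = 0.109 and 0.995). Summed markers of neural crest, neurons and glia also ran unevenly among the knockouts, at 79.0, 37.7 and 18.4 TPM in knockouts 1 to 3 and 17.7 to 20.9 TPM in controls. Those of the gonadal soma were 629, 589 and 519 TPM in the same 3 knockouts. Both sums were highest in knockout 1, whereas Sfrp2 and Frzb were highest in knockout 2. The mesenchyme markers summed to 2833, 3006 and 2869 TPM in knockouts 1 to 3. The part of any of these cell types in the spread of Sfrp2 and Frzb was not tested.

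Sfrp1, the most abundant of the 9 genes, was at 301, 315 and 378 TPM in knockouts and 345, 370.3 and 397 TPM in controls. Knockouts 1 and 2 lay below all controls, while knockout 3 exceeded controls 1 and 2. The means were 332 ± 41.3 TPM in knockouts and 371 ± 25.8 TPM in controls (SD, n = 3 each), which differed by -0.17 on the log2 scale (SE 0.095; limma adjusted p = 0.583). With 5786 to 7347 recovered reads per library, counting error was 1.26% in knockouts and 1.195% in controls, well under the spread between embryos. The 95% interval of the difference, -0.39 to 0.052, corresponds to 0.765 to 1.04 times the control level. The difference was -0.27 without knockout 3 and -0.10 without knockout 1 (limma adjusted p = 0.130 and 0.822). The nearest profile was that of Wls, which encodes the carrier protein that Wnt ligands need for secretion, at 68.8, 69.6 and 85.9 TPM in knockouts and 78.3, 83.0 and 90.9 TPM in controls. The distances were 0.018 for Wls, 0.018 for the lipid transfer gene Bltp1 and 0.027 for the DNA repair gene Shprh, and small distances are common for genes that vary little.

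Together the 8 secreted antagonists summed to 457, 504 and 491 TPM in knockouts and 487, 509.8 and 531 TPM in controls. Sfrp1 made up 65.8%, 62.6% and 77.0% of this sum in knockouts and 71.0%, 72.6% and 74.7% in controls. Sfrp2 came next, at 17.8%, 22.9% and 10.1% in knockouts and 11.6%, 13.2% and 12.51% in controls. The Dickkopf genes together held 10.6% to 12.6% in knockouts and 9.62% to 12.53% in controls. Sfrp5 held 0.511% to 1.08% in knockouts and 1.58% to 2.98% in controls. Wif1 held 0.341% to 0.420% in knockouts and 0.425% to 0.635% in controls. The shares of Sfrp1, Sfrp2, Frzb and the Dickkopf genes overlapped between the groups, and those of Sfrp5 and Wif1 did not.

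**Figure D4:**
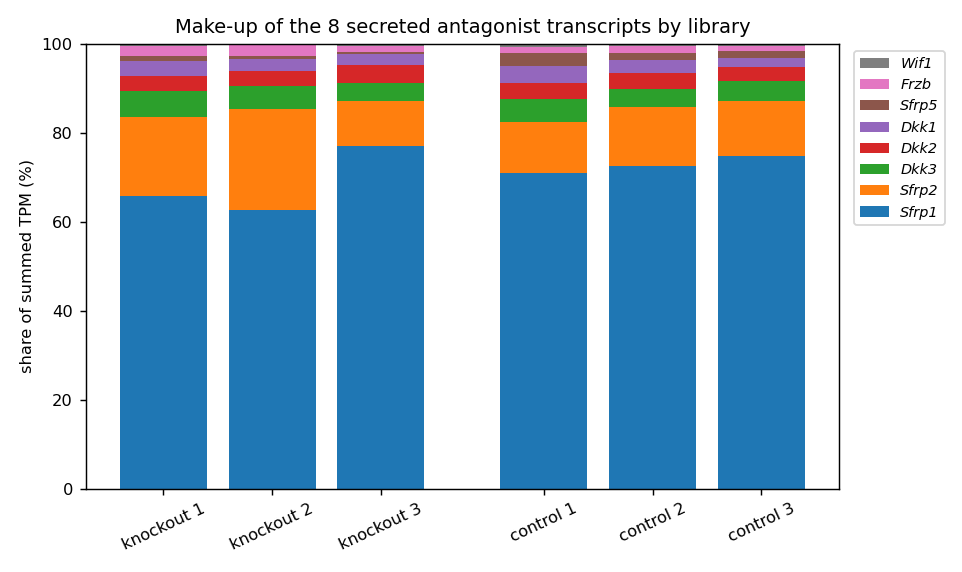
Share of each of the 8 secreted antagonist genes in their summed TPM, 1 bar per library, knockouts on the left and controls on the right. Sfrp1 takes 62.6% to 77.0% of the sum in knockouts and 71.0% to 74.7% in controls, and Sfrp2 the next largest share in every library.

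Of the Dickkopf genes, Dkk1, the antagonist of Lrp5 and Lrp6, was at 15.6, 13.9 and 11.7 TPM in knockouts and 18.6, 15.01 and 11.1 TPM in controls. The knockouts lay within the range of the controls, which spread more widely. Its log2 difference was -0.092 (SE 0.19, 95% interval -0.52 to 0.34; limma adjusted p = 0.900). The interval corresponds to 0.695 to 1.27 times the control level. Dkk2, which can inhibit or weakly activate the pathway depending on the Kremen protein present, was at 15.8, 16.7 and 20.1 TPM in knockouts and 17.7, 17.8 and 17.0 TPM in controls. The controls lay close together between the extremes of the knockouts. The log2 difference of Dkk2 was -0.0071 (SE 0.11, 95% interval -0.27 to 0.25; limma adjusted p = 0.988), and its sign changed with the scaling. Dkk3, a divergent member whose part in Wnt signalling is unsettled, was at 26.0, 25.5 and 20.5 TPM in knockouts and 24.7, 20.8 and 23.0 TPM in controls. Its groups overlapped, with a log2 difference of 0.065 (SE 0.12, 95% interval -0.21 to 0.34; limma adjusted p = 0.889).

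Kremen1 was at 14.1, 12.51 and 14.7 TPM in knockouts and 14.1, 16.01 and 19.0 TPM in controls. Knockout 3 exceeded control 1, and the other 2 knockouts lay below all controls, knockout 1 only narrowly. The log2 difference was -0.23 (SE 0.13, 95% interval -0.53 to 0.076; limma adjusted p = 0.587). For Kremen1 the adjusted p in the authors' deposited table is 0.391. Kremen2, the paralogue with the same role toward Dkk1, was at 6.25, 5.22 and 7.76 TPM in knockouts and 10.2, 8.95 and 9.80 TPM in controls. Its groups did not overlap, and its log2 difference of -0.54 (SE 0.16) did not pass (limma adjusted p = 0.245). The co-receptor genes on which Dkk1 acts overlapped between groups, with log2 differences of -0.14 for Lrp5 and -0.14 for Lrp6 (limma adjusted p = 0.786 and 0.664).

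Wif1 was the scarcest of the 9 genes, at 1.88, 1.72 and 2.07 TPM in knockouts and 3.09, 2.49 and 2.26 TPM in controls. Every knockout lay below every control, by a narrow margin against control 3. The values rested on 42, 35 and 42 recovered reads in knockouts and 73, 50 and 44 in controls. Counting error alone was 15.9% of the mean in knockouts and 13.4% in controls, about as large as the SD of 9.22% in knockouts and 16.4% in controls. The log2 difference was -0.32 (SE 0.19, 95% interval -0.75 to 0.11; limma adjusted p = 0.592). No difference was called, and values from so few reads are imprecise.

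The groups did not overlap for 2 of the 9 genes in the direction of lower, Sfrp5 and Wif1, against 8.49% of all genes tested. They did so for 0 of the 9 in the direction of higher, against 8.14% of all genes. An exact two-sided permutation test of mean TPM, which cannot go below 0.1 with 3 against 3, gave p = 0.1 for Sfrp5 and Wif1 and 0.2 or more for each of the other 7 genes. The median log2 difference of the 9 genes was -0.092, beside -0.0075 for all genes tested, with 6 differences below 0 and 3 above.

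In the order of mean levels, Sfrp1, Sfrp2, Dkk3 and Dkk2 led in both genotypes. Sfrp1, Sfrp2 and Dkk3 each exceeded the next gene in every library of both groups. Kremen1 and Dkk1 followed and overlapped with each other in both groups. In controls Dkk2 and Kremen1 also overlapped, at 17.0 to 17.8 TPM and 14.1 to 19.0 TPM. So did Dkk1 and Sfrp5 in controls, at 11.1 to 18.6 TPM and 8.40 to 14.5 TPM, though Dkk1 was the higher within each control. Places 7 and 8 were held by Frzb and Sfrp5 in knockouts and by Sfrp5 and Frzb in controls. Wif1 came last in both.

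Other inhibitors that act outside the cell or at its membrane, listed by name, gave 0 higher and 3 lower genes among 16 tested, with 13 not called (limma over all genes); limma-voom called 4 of the 16. Those 3 were Tpbg, which encodes a membrane protein that inhibits Wnt signalling at Lrp6, the Wnt-inactivating enzyme gene Notum and the membrane inhibitor gene Apcdd1. Tpbg fell to 42.4, 39.4 and 36.1 TPM in knockouts, against 62.2, 70.9 and 66.0 TPM in controls (log2 difference -0.74, SE 0.086; limma adjusted p = 0.0150). The log2 differences of Notum and Apcdd1 were -0.97 and -1.10. The secreted family members outside the 9 genes were scarce: Sfrp4 reached at most 1.09 TPM and lay under the filter, and Dkkl1 was at 1.97 to 3.17 TPM in knockouts and 0.949 to 4.15 TPM in controls. The genes Shisa2, Shisa3 and Trabd2b of the same list lay above all controls in every knockout, and limma called none of them. Shisa3 came nearest, 0.46 higher on the log2 scale (limma adjusted p = 0.0687), against 0.42 for Shisa2 and 0.36 for Trabd2b. The median of the 16 genes was -0.10.

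Of 11 tested Wnt ligands, 0 were called higher, 1 lower (Wnt5a) and 10 neither; the median of their log2 differences was -0.12. Of 19 tested receptors, co-receptors and R-spondins, 2 were called higher (Rspo1 and Lgr4), 0 lower and 17 neither, with a median of -0.12. Of 20 tested feedback genes and targets of beta-catenin, which include Dkk1 and Wif1, 0 were called higher, 3 lower and 17 neither. The 3 were Notum, Apcdd1 and Tnfrsf19, of which Notum and Apcdd1 are also among the other inhibitors above. The groups did not overlap for 9 of the 20, Wif1 among them, all lower in knockouts, against 8.49% of all genes tested. Limma-voom called 5 of the 20. The median of the 18 without Dkk1 and Wif1 was -0.26. Dkk1 at -0.092 thus lay above that median and Wif1 at -0.32 below it.

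**Figure D5:**
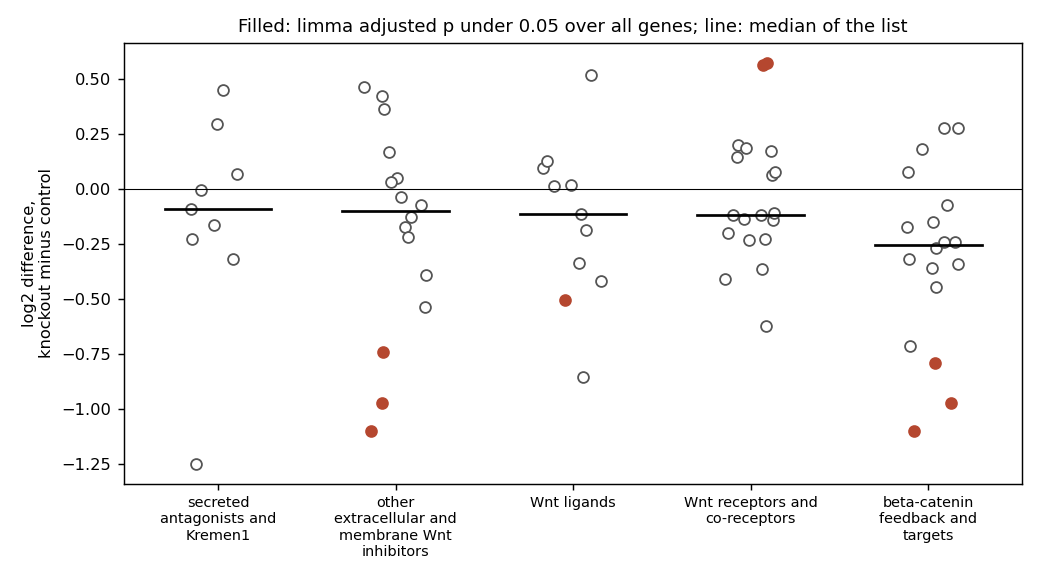
Log2 difference (knockout minus control) of each tested gene in 5 groups, with Dkk1 and Wif1 drawn only among the 9 antagonist genes; filled points passed limma over all genes and the line is the median of a group. Genes shared between the other groups, such as Notum and Apcdd1, are drawn in each. None of the 9 antagonist points is filled, and Sfrp5 at -1.25 is the lowest point of all groups shown.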

How the data were processed

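Per the labels' protocols, poly(A) RNA of each mesonephros was read in pairs. The submitters' processing notes name the build GRCm39 and DESeq2; the aligner, counter, strand setting and annotation, not given in the sources used here, stay unknown. The authors deposited 1 TPM value per gene and library, per the file headers, and beside them their log2 fold change (knockout over control), p-value and adjusted p-value, the last empty for 1175 genes. Each value column matched a sample.

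For the tests, genes reaching 1 TPM in 3 or more libraries were taken as log2(TPM + 1) and fitted with limma 3.58.1 (R 4.3.3), allowing for a mean-variance trend, with genotype as the sole term. P-values were adjusted by the Benjamini-Hochberg method over all 17577 genes. The text names every member, called genes of the lists, and the nearest profiles of the 3 members with the smallest p; Kremen2, Sfrp4, Dkkl1, Lrp5, Lrp6, Shisa2, Shisa3, Trabd2b, Hspa1a and Hspa1b were singled out with their values known. The members and lists were chosen with earlier results of these data known. Only the limma fit was tried on simulated data, with a fixed spread and with changes placed only in genes averaging 5 TPM or more. Read recovery, limma-voom, the permutation test and the counting intervals were not simulated.

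TPM holds no depth, but ratios within a gene gave whole reads (within 0.02) for 20027 of 20033 genes. Of 1000 genes checked, 93.5% gave whole reads, and 0.1% did so once their values had been altered at random. Any divisor shared by all 6 libraries goes unseen, which makes the reads lower bounds. Intervals and figures used Python 3.11.15, scipy 1.17.1 and matplotlib 3.10.9. The alternatives were no filter, a pseudocount of 0.1, median-ratio scaling, no trend, a replicate block, leaving out each library and, added after seeing the data, limma-voom on the recovered reads.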

Additional observations from a re-analysis of the deposited data

How the results depend on the processing

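None of the 9 antagonist genes passed an adjusted p of 0.05 under any alternative run, and 101 of 108 recomputed differences kept their direction. The other 7 belong to Dkk1 and Dkk2. All of these runs used limma, and the authors' deposited table lists Sfrp5 at adjusted p = 0.000629. The log2 difference of Dkk1 ran from -0.27 to 0.071 when single libraries were left out. That of Dkk2 ran from -0.10 to 0.061, and it was 0.0012 with median-ratio scaling and 0.0060 with limma-voom. For Sfrp5 the range was -1.41 to -1.01 over single omissions (limma adjusted p 0.102 to 0.275) and -1.45 to -1.24 over the other alternatives (adjusted p 0.0570 to 0.179).

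The count of all genes called, 78 (23 higher, 55 lower), was 28 (5 and 23) without a trend and 275 (91 and 184) with limma-voom; the cause was not tested. It was 30, 22 and 242 without knockout 1, 2 and 3 and 28, 13 and 14 without control 1, 2 and 3, with 2 to 97 higher and 10 to 145 lower. With mouse number as a replicate block it was 17 (4 and 13). The numbers do not pair the embryos by the labels: deviations from group means correlated at -0.064, 0.050 and -0.051 for numbers 1 to 3, and only number 2 correlated best with its own partner among the controls. Under that block Sfrp5 had an adjusted p of 0.0925. Depth limits Wif1 most, with 35 to 73 recovered reads per library.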

Other observations

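The summed level of the 15 Wnt ligand genes listed other than Wnt9b was 466, 463 and 472 TPM in knockouts and 538, 578 and 576 TPM in controls. Summed transcripts of the 8 secreted antagonists therefore stood at 0.981, 1.09 and 1.04 times the ligand sum in knockouts and 0.905, 0.883 and 0.922 times in controls. The ratio averaged 1.04 ± 0.053 in knockouts and 0.903 ± 0.020 in controls (SD, n = 3 each), and the groups did not overlap. The ligand sum did not overlap between the groups, whereas the antagonist sum did. Most of the fall in the ligand sum came from Wnt5a, Wnt6 and Wnt4. Their means were 115, 35.8 and 152 TPM in knockouts and 163, 62.8 and 173 TPM in controls. Of the 11 tested ligands, 5 had log2 differences above 0. Sfrp1 made up most of the antagonist sum in every library. The sums were formed after earlier results were known and mix genes of different cells, so no test is given.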
